A study of Mus musculus with 4 samples.

Results

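Imprinted growth genes are a group of genes that are read from only one parental copy in many tissues and that act on the growth of the embryo, the placenta and the young animal. The group examined here is named by 10 symbols, H19, Meg3, Dlk1, Peg3, Plagl1, Mest, Cdkn1c, Grb10, Ndn and Gnas, of which 9 have a row in the deposited table of 31828 genes. Ndn has no row in the table used here and was not analysed. RNA-seq libraries of polyadenylated RNA were made from AML12, an immortalised mouse hepatocyte line from a mouse carrying a transgene for transforming growth factor alpha. The cells were grown either as a flat layer (2D, 2 libraries) or inside Matrigel, a gel of basement membrane proteins (3D, 2 libraries). All 4 libraries come from cells held at the G1/S boundary with 1 mM hydroxyurea, which lasted 24 h in the flat layer and 36 h in the gel, so that culture and treatment time cannot be told apart.

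Imprinting rests on DNA methylation that is laid down in the egg or sperm at control regions rich in CpG dinucleotides and kept in the cells of the body. In the foetal liver several of these genes, such as H19 and Dlk1, are known to be highly expressed, and they are shut down after birth. Several members are further known to form a network of genes that are expressed together, in which the zinc finger protein Plagl1 acts on other members. Grb10, Cdkn1c, H19 and Meg3 are known as maternally expressed genes that restrain growth or accompany its restraint, while Dlk1, Peg3, Mest, Plagl1 and Ndn are expressed from the paternal copy. The values here are abundances per gene and do not separate the parental copies.

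The start regions of 2 members, Peg3 and Grb10, are shown first, with CpG dinucleotides in capitals. Whether either stretch is methylated or belongs to an imprinted control region was not tested. Both were read from RefSeq sequence on GRCm38.p6 and are written 5′ to 3′ on the minus strand, from which Peg3 and Grb10 are read. The first is the whole interval between Peg3 and its divergent neighbour Usp29 as the deposited table places these genes, chr7:6730432-6730577. The second, chr11:12037421-12037670, is the stretch just upstream of the RefSeq start of Grb10 with the higher number of CpG dinucleotides. It lies within Grb10 as the deposited table places that gene, at 11930508 to 12038683.
Peg3-Usp29 gap: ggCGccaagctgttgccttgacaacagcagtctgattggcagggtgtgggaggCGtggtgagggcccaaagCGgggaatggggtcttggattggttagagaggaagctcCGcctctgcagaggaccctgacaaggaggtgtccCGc
Grb10 upstream: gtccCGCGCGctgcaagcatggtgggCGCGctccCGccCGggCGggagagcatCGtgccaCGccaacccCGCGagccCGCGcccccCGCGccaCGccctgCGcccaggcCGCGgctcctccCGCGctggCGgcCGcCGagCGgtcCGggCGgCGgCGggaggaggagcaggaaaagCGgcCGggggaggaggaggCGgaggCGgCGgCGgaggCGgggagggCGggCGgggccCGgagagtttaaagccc

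The gap of 146 bases between Peg3 and Usp29 holds 5 CpG dinucleotides, while the 250 bases upstream of that RefSeq start of Grb10 hold 40. Windows of 300 bases around RefSeq starts were found for 8 of the 10 members, with 15 windows in all and none for Cdkn1c and H19. The median over all 32851 windows of this length was 7 CpG dinucleotides. The Grb10 window above held 45, more than 98.1% of all windows, and the Peg3 window held 13, more than 62.1%. The 4 Gnas windows held between 16 and 40. The lowest count, 1, was found at the downstream start of Meg3. The letters of 3 motifs were searched on both strands in the same windows. CCAAT, the core of a common promoter element, was found 2 times in the Peg3 window, both in the gap shown above, once in each of 2 overlapping Gnas windows and once in the upstream Meg3 window, and occurs in 37.4% of all windows. TGACGTCA, the cAMP response element, occurred once in the Peg3 window and once in the upstream Meg3 window, and occurs in 1.79% of all windows. GGGGCCCC, a core of the sequence that the Plagl1 protein is known to bind, was found once, in the Peg3 window, and occurs in 1.08% of all windows. The TGACGTCA and GGGGCCCC matches lie outside the gap shown above, and no matches of different motifs share letters. These matches are descriptions of the letters in these windows only.

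Before the members are described, some facts of the series bear on them. The values are TPM, the share of each transcript among all transcripts after length is divided out, and such shares keep no trace of how deeply a library was sequenced. Of the 12 hepatocyte markers examined, 8 reached 1 TPM in every library. Alb, the main plasma protein of the liver, stood at only 0.819 and 1.2 TPM in 2D and 12.7 and 10.0 TPM in 3D, and Serpina1a was under 0.1 TPM in every library. Hnf4a, a master regulator of hepatocytes, had 56.7 and 57.6 TPM in 2D and 164 and 156 TPM in 3D. The summed level of the 12 markers was 9450 to 9647 TPM in 2D and 5486 to 5560 TPM in 3D, and that of 5 biliary markers 2294 to 2401 and 2269 to 2357 TPM. Within the biliary list Krt19 (1728 and 1647 TPM in 2D, 1174 and 1226 TPM in 3D) and Krt7 were called lower, Spp1 (166 and 138 TPM in 2D, 764 and 786 TPM in 3D) and Sox9 were called higher, and Epcam was at or near 0. Among markers of other liver cells, the leukocyte gene Ptprc had at most 0.296 TPM and the fibroblast gene Col1a1 at most 0.595 TPM. Not all such markers were low. Cd68, of the leukocyte list, lay between 18.29 TPM (2D replicate 2) and 25.54 TPM (3D replicate 1) and was not called. The endothelial gene Vwf had 1.095 and 1.075 TPM in 2D and 5.179 and 5.051 TPM in 3D and was called higher. The summed level of 8 stellate cell and fibroblast markers was 35.04 to 37.7 TPM in 2D and 18.95 to 20.1 TPM in 3D, nearly all of it from Des, that of 6 endothelial markers 1.97 to 2.61 and 6.82 to 7.18 TPM, and that of 9 leukocyte markers 23.4 to 23.9 and 25.2 to 28.6 TPM. Their part in the results below was not tested.

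Only 3 of the 9 members, Gnas, Peg3 and Grb10, were expressed at 1 TPM or more, and they were so in all 4 libraries. These were far apart in level and moved in different directions. Gnas and Peg3 were lower in the 3D-cultured cells, at 0.831 and 0.766 times their 2D level, and Grb10 was higher, at 1.8 times its 2D level. The other 6 members were under 0.5 TPM in each library, with values of 0 to 0.447 TPM.

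**Figure D1:**
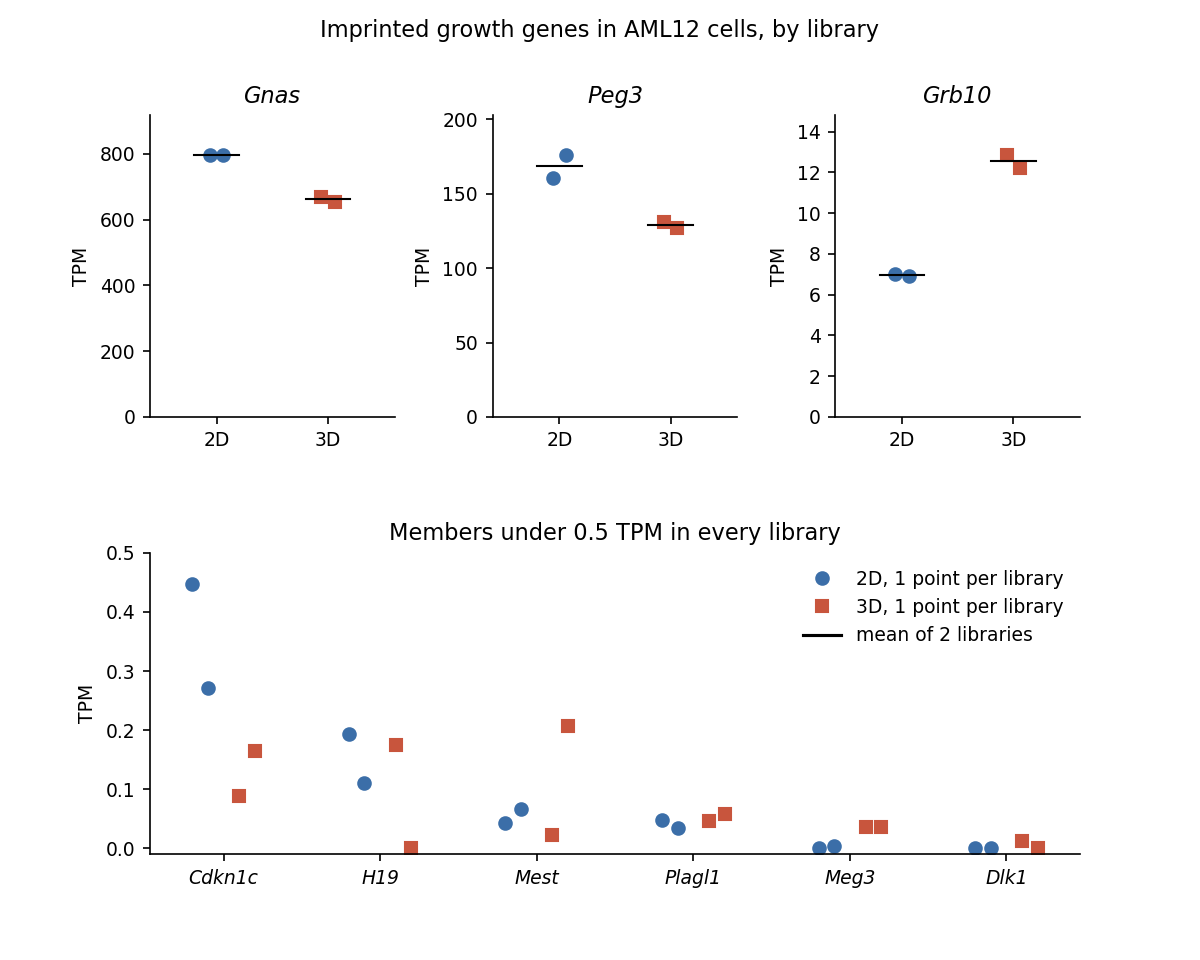
TPM of the 9 imprinted growth genes in each library, with circles for 2D, squares for 3D and horizontal bars in the upper panels for the mean of 2 libraries. The axes differ between panels and the 3 upper ones start at 0. Gnas and Peg3 sit lower and Grb10 higher in 3D without overlap, while the 6 genes of the lower panel stay at or under 0.447 TPM.

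Gnas encodes the stimulatory G protein alpha subunit, which couples hormone receptors to adenylyl cyclase, along with several imprinted products from upstream starts. It lies on chromosome 2 at 174284320 to 174346744 (GRCm38, plus strand, ENSMUSG00000027523). Its level was 796 and 798 TPM in the 2D libraries and 669.5 and 655 TPM in the 3D libraries, so that both 3D libraries lay below both 2D libraries. The mean fell from 797 ± 1.38 TPM (SD over 2 libraries) to 662 ± 10.5 TPM. On the scale of log2(TPM + 1) the change was -0.27 ± 0.03 (SE, 95% interval -0.35 to -0.18), with an adjusted p of 0.00340 by limma. Gnas ranked 151 of 31828 genes by mean TPM. Among the tested genes, 55.2% had a larger absolute log2 fold change. GENCODE release M21 lists 24 transcripts of Gnas with 16 distinct first positions, and the value of the table covers all of them together. A change in one imprinted product therefore cannot be told apart from a change in the main product.

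Peg3 encodes a large zinc finger protein that is expressed from the paternal copy. The gene lies on chromosome 7 at 6703892 to 6730431 (minus strand, ENSMUSG00000002265). Its level was 161 and 176 TPM in 2D and 131 and 127 TPM in 3D, again with no overlap between the cultures. The mean fell from 169 ± 11.02 TPM (SD over 2 libraries) to 129 ± 2.66 TPM. The log2 change was -0.38 ± 0.06 (SE, 95% interval -0.54 to -0.23), with an adjusted p of 0.00682 by limma. The 2D libraries differed from each other by 1.10 times. Peg3 ranked 1177 by mean TPM, above 96.3% of the genes of the table, so that it was an abundant transcript in both cultures.

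Grb10 encodes an adaptor protein that binds the insulin and IGF receptors and restrains their signalling. It lies on chromosome 11 at 11930508 to 12038683 (minus strand, ENSMUSG00000020176). Its level was 6.996 and 6.91 TPM in 2D and 12.9 and 12.2 TPM in 3D. Both 3D libraries lay above both 2D libraries, and the libraries of a culture differed by at most 1.06 times. The mean rose from 6.95 ± 0.0620 TPM (SD over 2 libraries) to 12.5 ± 0.480 TPM. The log2 change was 0.77 ± 0.08 (SE, 95% interval 0.56 to 0.97), with an adjusted p of 0.00222 by limma, and 14.9% of the tested genes had a larger absolute value. GENCODE lists 9 transcripts of Grb10, each with its own first position, and the table does not separate them.

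All 3 tested members passed the threshold of an adjusted p-value under 0.05, 1 higher and 2 lower in 3D. In the same fit 50.5% of all 14116 tested genes were called, 23.4% higher and 27.1% lower, so a call by itself does not set these members apart. Without 3D replicate 1, 4720 genes were called. The libraries of the cultures did not overlap for 77.5% of the tested genes. In bulk RNA a lower value in fewer cells and less RNA in each cell cannot be told apart.

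The remaining members had levels at which no change could be tested with the filter of a mean of 1 TPM. Cdkn1c, which encodes the cyclin-dependent kinase inhibitor p57 and lies on chromosome 7 at 143458339 to 143461050, had 0.447 and 0.272 TPM in 2D and 0.0887 and 0.165 TPM in 3D. Both 3D libraries were the lower ones. H19, a maternally expressed long noncoding RNA on the same chromosome at 142575529 to 142578143, had 0.193 and 0.111 TPM in 2D and 0.175 and 0 TPM in 3D, with overlap between the cultures. Mest, a paternally expressed gene for a protein with an alpha/beta hydrolase fold, had 0.0438 and 0.0675 TPM in 2D. In 3D it had 0.0228 and 0.207 TPM, so that its 3D libraries enclosed both 2D values.

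Plagl1, the zinc finger factor of the imprinted network, had 0.0478 and 0.0342 TPM in 2D and 0.0462 and 0.0590 TPM in 3D, and the cultures overlapped. The adjacent genes Dlk1 and Meg3 on chromosome 12 had the lowest values of the group. Dlk1, a transmembrane protein of the Notch ligand family known from foetal liver and fat precursors, was listed at 0 in both 2D libraries and in 3D replicate 2, and at 0.0130 TPM in 3D replicate 1. Meg3, a maternally expressed noncoding RNA, was listed at 0 and 0.0034 TPM in 2D and at 0.0362 and 0.0370 TPM in 3D. A value of 0 can be a failed estimate in this table, since the mitochondrial gene mt-Atp6, which every cell uses, was listed at 91.0 TPM in one 2D library and at 0.041 TPM or less in the other 3 libraries.

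With no filter on low values these 6 genes had limma adjusted p-values of 0.197 to 0.784, and 0 of them passed the threshold, also at an unadjusted p-value under 0.05. In that fit 18.8% of 31828 genes were called. At these levels a difference between the cultures was not detectable, which does not show that there is none. The cultures did not overlap for 2 of the 6, Cdkn1c and Meg3, and did not overlap for 54.1% of all genes in the table.

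**Figure D2:**
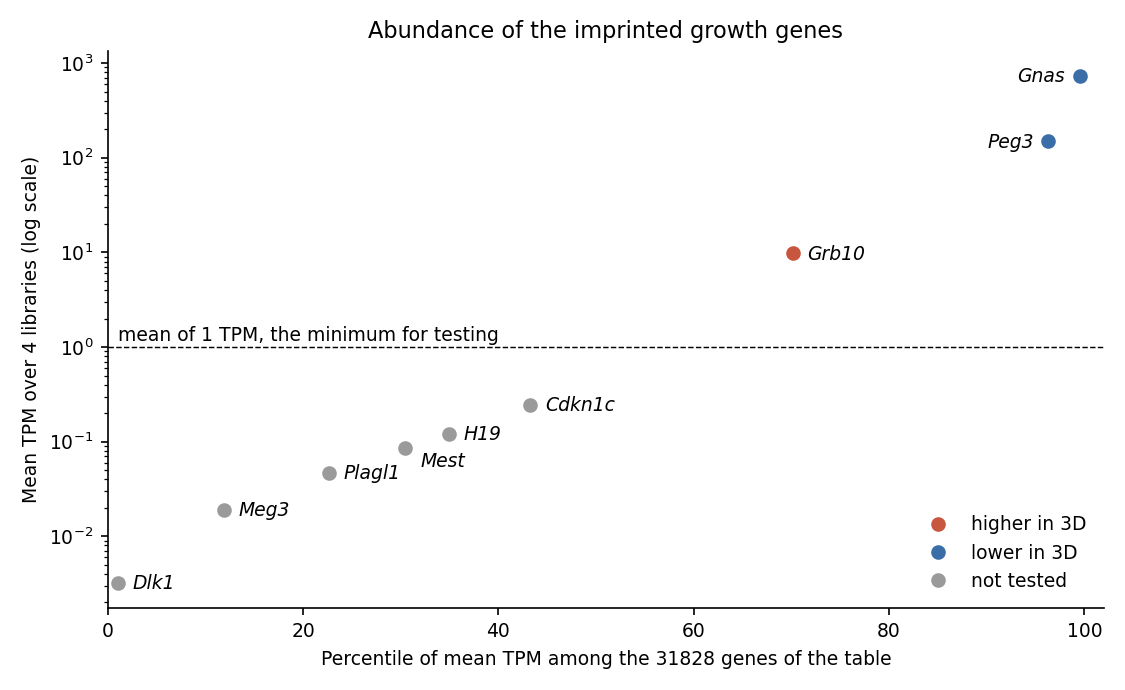
Mean TPM over 4 libraries (log scale) of each of the 9 members against its percentile among all 31828 genes of the table, with the call of each member in colour and a dashed line at 1 TPM. Gnas, Peg3 and Grb10 stand at percentiles 99.5, 96.3 and 70.1, and the other 6 lie between 1.07 and 43.3.

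The order of the members by TPM, which is comparable between genes because it is given per transcript length, was therefore Gnas, Peg3, Grb10, Cdkn1c, H19, Mest, Plagl1, Meg3 and Dlk1. The first 3 were separated from their neighbours in this order in every library. From Cdkn1c downwards, the ranges of neighbouring genes over the 4 libraries overlapped.

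Of 7 genes of the imprinted network beyond the 10 symbols, 5 have a row, and only Igf2r was tested. Igf2r, the receptor that takes up IGF2 for degradation, had 10.2 and 11.3 TPM in 2D and 15.5 and 14.5 TPM in 3D. Its log2 change was 0.45 ± 0.09 (SE, adjusted p 0.0138 by limma), but without 3D replicate 1 the adjusted p was 0.0753 and 0 of this list were called. Igf2, the growth factor gene that shares its enhancers with H19, had 0.051 and 0.353 TPM in 2D and 0.586 and 0.541 TPM in 3D. Its mean of 0.383 TPM left it untested, as did the means of Dcn, a matrix proteoglycan gene, at 0.149 TPM and Slc38a4, an amino acid transporter gene, at 0.0351 TPM.

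Other genes of the imprinted domains in which the members lie were then compared. Of 36 listed genes 28 have a row and 17 were tested. Of these, 3 were higher, 6 were lower and 8 did not pass, with a median log2 fold change of -0.09 against -0.04 over all tested genes. This is 9 of 17 called, beside 50.5% of all tested genes. Genes called higher and genes called lower lay together in the domains of Grb10 and Cdkn1c. The Peg3, Mest and Ndn domains each held a single called gene of this list, Usp29, Copg2 and Atp10a. Each was lower, and each call was lost in some of the alternatives, as given below.

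In the domain of Grb10, its neighbour Ddc, which encodes the decarboxylase that makes dopamine and serotonin, rose as Grb10 did. Ddc had 1.23 and 1.13 TPM in 2D and 9.65 and 8.77 TPM in 3D, a log2 change of 2.23 ± 0.11 (SE, adjusted p 0.000436 by limma). On the other side Cobl, an actin nucleator, fell from 24.4 and 27.0 TPM to 9.14 and 8.66 TPM. Its log2 change was -1.43 ± 0.08 (SE, adjusted p 0.000577 by limma). The third tested gene within 250 kb, Fignl1, an ATPase of recombination repair, had 48.7 and 44.6 TPM in 2D and 7.51 and 23.9 TPM in 3D. The 3D libraries of Fignl1 were far from each other. Its log2 change was -1.71 ± 0.51 (SE), which became -0.94 without 3D replicate 1 and -2.48 without 3D replicate 2, and its call (adjusted p 0.0470 by limma) was lost without 2D replicate 1 (0.273) and without 2D replicate 2 (0.252). It was also lost with no filter (0.1035), a pseudocount of 0.1 (0.0506), a constant prior variance (0.0741), quantile scaling (0.055) and the total without mitochondrial and the highest genes (0.0805).

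In the domain of Peg3, Usp29, a gene for a ubiquitin protease that is read away from Peg3 across the gap shown above, was lower in 3D as Peg3 was. Usp29 had 7.63 and 7.85 TPM in 2D and 5.06 and 5.89 TPM in 3D. Its log2 change was -0.44 ± 0.10 (SE, adjusted p 0.0243 by limma). The call was lost with no filter (adjusted p 0.0574 by limma), and also without 2D replicate 1, without 2D replicate 2 and without 3D replicate 1. Zim1, a zinc finger gene of the same domain, had a mean of 0.0484 TPM, and its relative Zim3 was listed at 0 in 3 libraries and at 0.0193 TPM in 3D replicate 2. Peg3 and Usp29 were thus the 2 transcripts of this domain with values above 1 TPM, with mean levels that differed by 22.5 times.

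The domain of Cdkn1c on distal chromosome 7 held transcripts that moved in both directions, although Cdkn1c was under 0.5 TPM throughout. Slc22a18, an imprinted transporter gene, had 6.95 and 6.07 TPM in 2D and 13.7 and 15.6 TPM in 3D, a log2 change of 1.06 ± 0.11 (SE, adjusted p 0.00228 by limma). Kcnq1, a potassium channel gene, had 2.46 and 2.91 TPM in 2D and 6.22 and 5.53 TPM in 3D, a log2 change of 0.90 ± 0.12 (SE, adjusted p 0.00448 by limma). Kcnq1ot1, the long noncoding RNA that is read from the opposite strand within Kcnq1 and silences the domain on the paternal copy, moved the other way. It had 2.26 and 2.42 TPM in 2D and 0.876 and 1.01 TPM in 3D, a log2 change of -0.78 ± 0.12 (SE, adjusted p 0.00741 by limma). The kit and the alignment were stranded, but the split of reads between these overlapping genes remains uncertain. Osbpl5, a lipid transfer protein gene, fell from 94.6 and 110.5 TPM to 65.9 and 70.9 TPM. Its log2 change was -0.57 ± 0.09 (SE, adjusted p 0.00721 by limma). Cd81, the most abundant gene of this list with 588 to 630.5 TPM, was not past the threshold (log2 change -0.09, adjusted p 0.0641 by limma). Nap1l4, a histone chaperone gene (-0.13, 0.21), Tnfrsf23, a decoy receptor gene with 273 to 293 TPM (0.02, 0.755), Tspan32, a tetraspanin gene (0.15, 0.357), Tssc4 (-0.03, 0.707) and Dhcr7, an enzyme gene of cholesterol synthesis (0.12, 0.495), did not pass either, each given with its log2 change and limma adjusted p. Phlda2, which restrains growth of the placenta, had a mean of 0.26 TPM.

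In the remaining domains few genes were tested. In the domain of Ndn, Mkrn3 and Ube3a did not pass (adjusted p of 0.983 and 0.464 by limma). There Atp10a, a lipid flippase gene, had 18.9 and 31.2 TPM in 2D and 11.1 and 11.3 TPM in 3D (log2 change -1.06, adjusted p 0.0206 by limma). The call of Atp10a was lost with no filter (adjusted p 0.0512 by limma), without 3D replicate 1 and without 3D replicate 2. Mest overlaps the end of Copg2, a coat protein gene read from the opposite strand, and Copg2 had 27.5 TPM in both 2D libraries and 22.7 and 22.9 TPM in 3D (log2 change -0.26, adjusted p 0.0193 by limma). That call was lost when any 1 of the 4 libraries was left out, with adjusted p-values of 0.0566 to 0.0927. Cep41, a centrosomal protein gene 29798 bases from Mest, had a log2 change of -0.28 and did not pass (adjusted p 0.0654 by limma), and passed with quantile scaling (0.0406). Mrpl23 beside H19 had 55.1 to 58.9 TPM and did not pass (adjusted p 0.217 by limma). Near Dlk1 and Meg3 no gene within 250 kb reached a mean of 1 TPM. The closest to it was Rtl1, a retrotransposon-derived gene chosen here after its values were seen, with 0.354 and 0.261 TPM in 2D and 1.74 and 1.53 TPM in 3D. It was untested with the filter, and in the fit with no filter its log2 change was 1.01 (adjusted p 0.0101 by limma). Rian and Mirg, noncoding RNAs downstream of Meg3, had means of 0.290 and 0.0829 TPM. Mirg had 0 and 0.0149 TPM in 2D and 0.183 and 0.134 TPM in 3D (adjusted p 0.0764 by limma with no filter). The cultures overlapped in Rian. Klf14, a zinc finger gene of the Mest domain, had at most 0.0405 TPM.

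**Figure D3:**
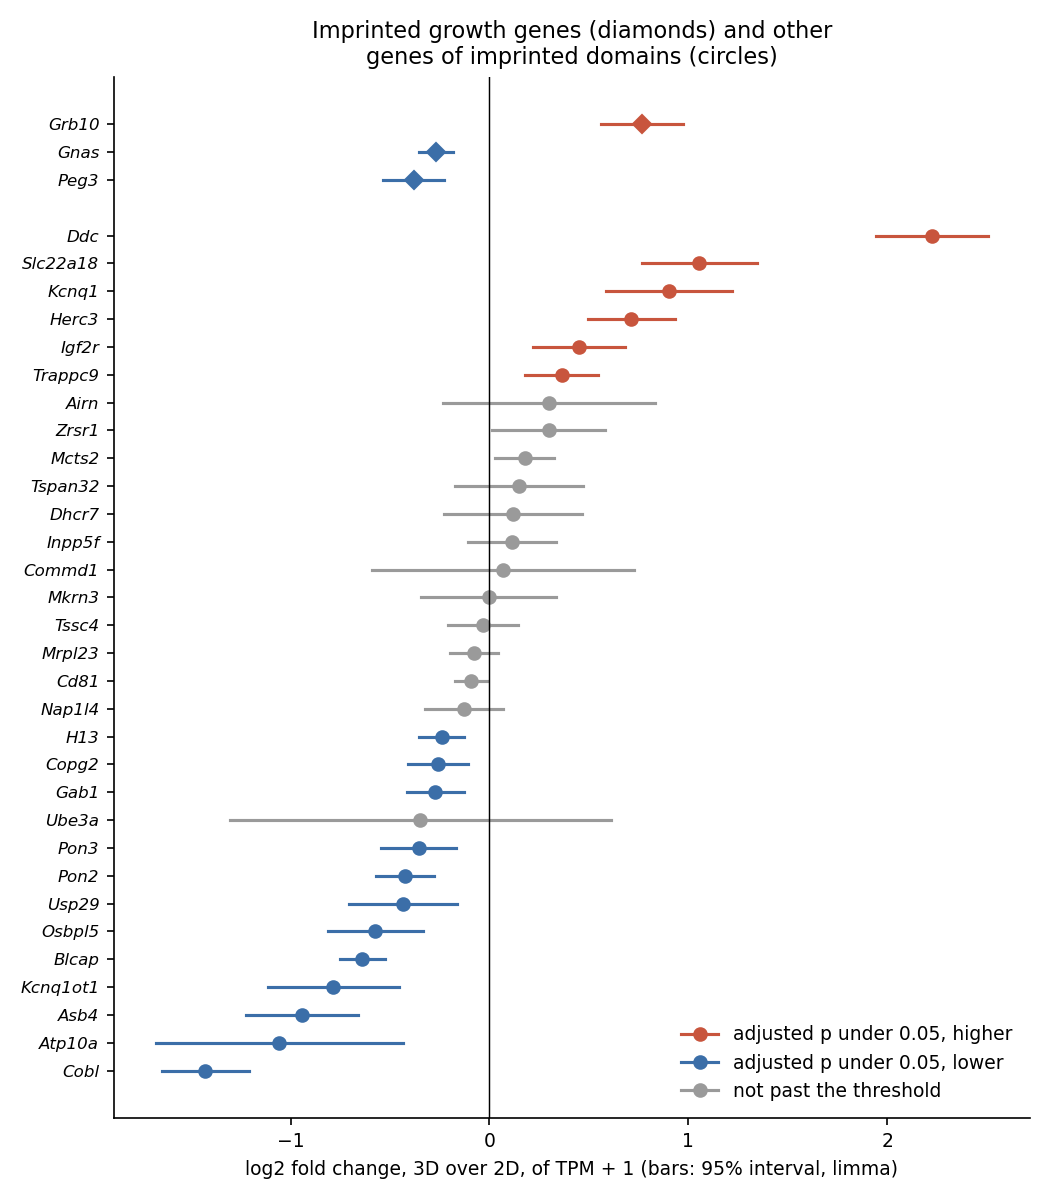
Log2 fold change of TPM + 1, 3D over 2D, with 95% intervals from limma, for the 3 tested members (diamonds) and the other tested genes of imprinted domains (circles), coloured by call. Grb10 stands at 0.77, Gnas at -0.27 and Peg3 at -0.38, within a spread from -1.43 for Cobl to 2.23 for Ddc.

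Imprinted genes from other parts of the genome gave a similar mixture. Of 33 listed genes 30 have a row and 14 were tested, with 3 higher, 6 lower and 5 not past the threshold. These 9 of 14 stand beside 50.5% of all tested genes (23.4% higher, 27.1% lower). The median log2 fold change was 0.09. Without 3D replicate 1 and without 3D replicate 2 the number called was 5 each. Blcap, an apoptosis-related gene of chromosome 2, had the highest TPM of this list. It fell from 128 and 131 TPM to 81.7 and 83.7 TPM, a log2 change of -0.64 ± 0.04 (SE, adjusted p 0.000755 by limma). Pon2, a paraoxonase, fell by 0.42 in log2 (adjusted p 0.00425 by limma). H13, a signal peptide peptidase, had a log2 change of -0.24 (adjusted p 0.0108 by limma, lost without 3D replicate 1 at 0.0601 and without 3D replicate 2 at 0.0677). Mcts2, which lies within H13, had 0.18 (adjusted p 0.0535 by limma), which without 2D replicate 1 was 0.22 (adjusted p 0.0454).

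All genes of the table within 250 kb of a member were counted as well, whether imprinted or not. Of 91 such genes 34 were tested, with 7 higher, 16 lower and 11 not past the threshold. The median was -0.26. These 23 of 34 called are to be read against the 50.5% of all tested genes (23.4% higher, 27.1% lower). Within 100 kb 16 genes were tested and 11 called, 5 higher and 6 lower. Within 500 kb 60 were tested and 31 called, 13 higher and 18 lower, which is near the share of all tested genes. Around Gnas 7 neighbours were tested, with 1 higher and 3 lower. Ctsz, a lysosomal protease gene, rose from 473 and 479 TPM to 624.5 and 625 TPM, a log2 change of 0.39 ± 0.03 (SE, adjusted p 0.00121 by limma). Npepl1, an aminopeptidase gene on the other side, fell by 0.35 in log2 (adjusted p 0.00406 by limma). Nelfcd, an elongation factor gene and the nearest tested one to the right, did not pass (log2 change -0.17, adjusted p 0.0659 by limma). Gm20721, a predicted gene read from the opposite strand within Gnas and chosen after its values were seen, had 4.50 and 3.64 TPM in 2D and 2.63 and 1.8 TPM in 3D (adjusted p 0.0349 by limma). That call was lost with no filter (adjusted p 0.0775 by limma), and also without 2D replicate 1, without 2D replicate 2 and without 3D replicate 2.

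Around H19 6 neighbours were tested, with 2 higher and 1 lower. Ctsd, a lysosomal protease gene 187491 bases from H19, rose from 1422 and 1458 TPM to 2252 and 2223 TPM, a log2 change of 0.64 ± 0.03 (SE, adjusted p 0.000447 by limma). Around Plagl1 5 were tested, with 1 higher and 3 lower. The higher one was Stx11 (log2 change 0.52, adjusted p 0.0081 by limma). Utrn, the utrophin gene, 191139 bases from Plagl1, fell from 65.2 and 74.8 TPM to 50.7 and 50.1 TPM (log2 change -0.46, adjusted p 0.00907 by limma). Tmem209, a nuclear envelope protein gene 213764 bases from Mest, fell by 0.52 in log2 (adjusted p 0.00228 by limma). The nearest tested genes of Plagl1 were Sf3b5, a splicing factor gene (log2 change -0.28, adjusted p 0.0145 by limma, lost without 3D replicate 1 at 0.0794 and without 3D replicate 2 at 0.0541), and Ltv1, a ribosome assembly gene (-0.19, adjusted p 0.0398 by limma). The call of Ltv1 was lost with no filter (adjusted p 0.0905 by limma), a constant prior variance (0.0605) and the total without mitochondrial and the highest genes (0.0571). It was also lost with any 1 library left out.

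**Figure D4:**
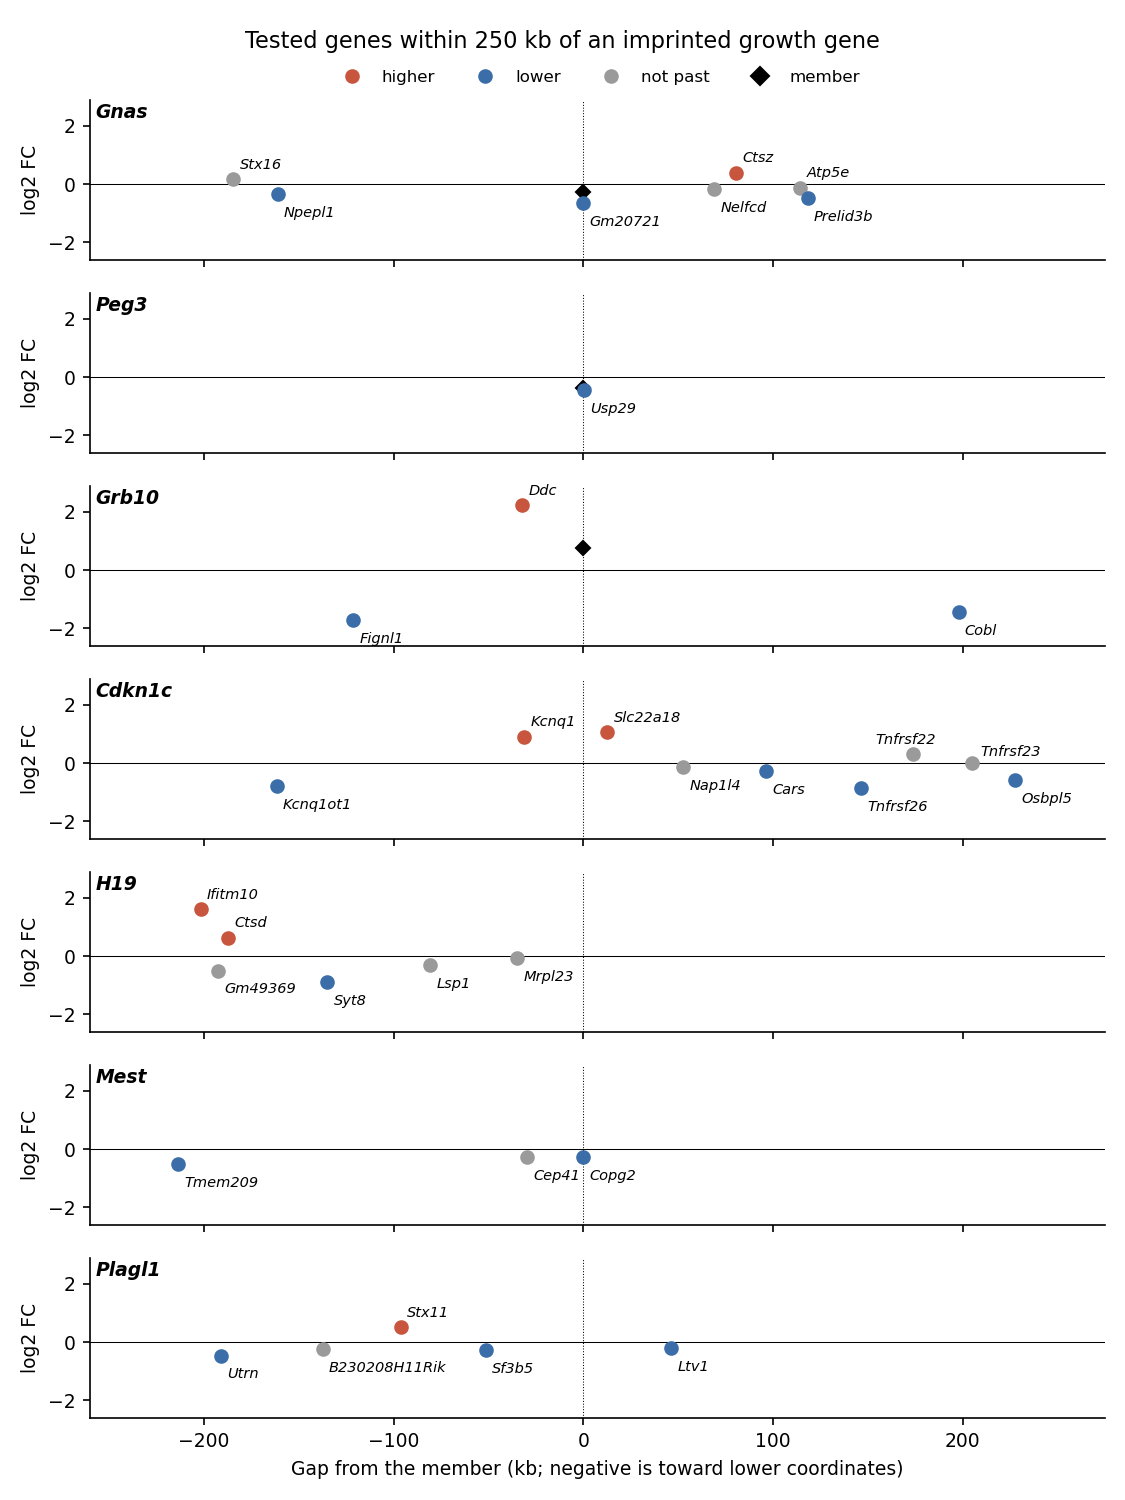
Log2 fold change of each tested gene within 250 kb of a member against its gap from that member in kb, with members that were tested as black diamonds and genes coloured by call. Meg3 and Dlk1 have no tested neighbour and are left out. Genes higher and lower in 3D lie side by side around Grb10, Cdkn1c, Gnas, H19 and Plagl1.

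The pathways on which Gnas, Grb10 and Cdkn1c act were compared through lists of partner genes. In insulin and IGF receptor signalling, the pathway restrained by Grb10, all 31 genes have a row and 29 were tested. Of these 8 were higher, 3 lower and 18 not past the threshold, with a median log2 fold change of 0.05. The 11 of 29 called stand beside 50.5% of all tested genes, of which 23.4% were higher and 27.1% lower. Eif4ebp1, a translation repressor controlled by mTOR, fell from 245 and 242 TPM to 146 and 149 TPM (log2 change -0.72, adjusted p 0.000465 by limma). Nedd4, the ubiquitin ligase that binds Grb10, had 168 and 293 TPM in 2D and 360.2 and 354 TPM in 3D. It did not pass (log2 change 0.69 ± 0.27 (SE), adjusted p 0.0907 by limma). Its log2 change was 0.29 without 2D replicate 1 and 1.085 without 2D replicate 2, so its size depended on which 2D library was kept. Akt1 and Shc1, which transmit the receptor signal, did not pass either (adjusted p of 0.692 and 0.206 by limma).

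The receptors and adaptors of this pathway were chosen after their values were seen. Igf1r, the IGF1 receptor gene, had 40.2 and 44.5 TPM in 2D and 23.7 and 23.3 TPM in 3D, a log2 change of -0.82 ± 0.07 (SE, adjusted p 0.00143 by limma). Insr, the insulin receptor gene, had 13.2 and 15 TPM in 2D and 19.7 and 16.9 TPM in 3D, a log2 change of 0.35 (adjusted p 0.0501 by limma). It passed the threshold after median centring (0.0371). Grb7, an adaptor of the same family as Grb10, had 19.1 and 21.8 TPM in 2D and 65.3 and 64.2 TPM in 3D, a log2 change of 1.62 ± 0.08 (SE, adjusted p 0.000447 by limma). Gigyf1, which encodes a protein that binds Grb10, had 19.4 and 21.4 TPM in 2D and 38.4 and 34.9 TPM in 3D, a log2 change of 0.82 ± 0.08 (SE, adjusted p 0.00218 by limma). Their relatives Grb14 and Gigyf2 did not pass (log2 change -0.04 and 0.07, adjusted p of 0.795 and 0.401 by limma). Grb14 had a mean of only 1.04 TPM.

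In Gs and cAMP signalling, the pathway of Gnas, 39 of 40 genes have a row and 26 were tested, with 9 higher, 3 lower and 14 not past the threshold. These are 12 of 26 called, against 50.5% of all tested genes (23.4% higher, 27.1% lower). The median was 0.05, and without 3D replicate 1 the number called was 7. Gnb2, a beta subunit that pairs with the alpha subunit, rose from 264 and 280 TPM to 343 and 353 TPM (log2 change 0.36, adjusted p 0.00410 by limma). Gng5, a gamma subunit, was not past the threshold (log2 change -0.09, adjusted p 0.114 by limma). Prkar1a, a regulatory subunit of protein kinase A, had 229 to 258 TPM and a log2 change of 0.15 (adjusted p 0.0244 by limma). Its call was lost with a constant prior variance (adjusted p 0.0899 by limma) and with no filter (0.0541). It was also lost without 2D replicate 1, without 3D replicate 1 and without 3D replicate 2. Prkacb, a catalytic subunit, had a log2 change of -0.22 (adjusted p 0.0123 by limma, and 0.0867 without 3D replicate 2).

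The largest log2 changes among the 26 tested genes of that list, chosen after they were seen, were those of Ppargc1a and Adcy7. Ppargc1a, a coactivator induced by cAMP in the fasting liver, had 2.88 and 3.35 TPM in 2D and 9.96 and 9.37 TPM in 3D, a log2 change of 1.38 ± 0.10 (SE, adjusted p 0.00102 by limma). Adcy7, an adenylyl cyclase gene, had 7.82 and 8.82 TPM in 2D and 3.35 and 3.30 TPM in 3D, a log2 change of -1.11 ± 0.10 (SE, adjusted p 0.00164 by limma). The other tested cyclase genes did not share this fall. Adcy6 and Adcy9 were called higher (log2 change 0.62 and 0.80, adjusted p of 0.00360 and 0.00521 by limma). Adcy5 did not pass (-0.26, adjusted p 0.139 by limma).

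The other CDK inhibitors stood in contrast to Cdkn1c in their level. All 7 were tested, with 3 higher, 1 lower and 3 not past the threshold and a median of 0.23. A share of 4 of 7 is near the 50.5% of all tested genes. Cdkn1a, which encodes p21 and responds to p53, had 2805 and 2759 TPM in 2D and 3364 and 3323 TPM in 3D (log2 change 0.27, adjusted p 0.00259 by limma). Cdkn2b and Cdkn2a, which encode p15 and, for Cdkn2a, p16 and p19Arf, rose by 0.62 and 0.74 in log2 (adjusted p of 0.000991 and 0.00565 by limma). Cdkn3, a phosphatase that acts on CDK2, fell by 0.82 (adjusted p 0.000527 by limma). Cdkn1b, which encodes p27, the closest relative in role to Cdkn1c and Cdkn1a, had 21.0 and 21.3 TPM in 2D and 23.9 and 25.9 TPM in 3D and did not pass (adjusted p 0.05003 by limma). It passed after median centring (0.0409), with a stricter filter at 5 TPM (0.0474), quantile scaling (0.0462) and the reduced total (0.0365).

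A last list holds factors that keep or remove methylation at imprinted control regions. All 20 have a row and 15 were tested, with 4 higher, 4 lower and 7 not past the threshold and a median of -0.03. The 8 of 15 called are near the 50.5% of all tested genes. The other 5, Dppa3, Dnmt3b, Tet1, Dnmt3l and Ctcfl, had means of 0.0534 to 0.539 TPM. Trim28, the corepressor recruited to imprinted regions, had 170 to 175 TPM and did not pass (adjusted p 0.541 by limma). Dnmt1, the maintenance methyltransferase, fell from 63.3 and 70.4 TPM to 47.0 and 45.3 TPM (log2 change -0.52, adjusted p 0.00446 by limma). Its cofactor Uhrf1, chosen after its values were seen, fell by 0.49 (adjusted p 0.00244 by limma). Arid4b, a chromatin protein gene, had a log2 change of -0.28 (adjusted p 0.0164 by limma, lost without 2D replicate 2 at 0.0593 and without 3D replicate 1 at 0.0831). Ctcf, the insulator protein gene, chosen after its values were seen, had a log2 change of 0.27 (adjusted p 0.0138 by limma), lost without 3D replicate 1 (0.0799) and without 3D replicate 2 (0.0615). Ehmt2, a histone H3 lysine methyltransferase, rose from 62.3 and 62.8 TPM to 119 and 133 TPM (log2 change 1.00, adjusted p 0.000772 by limma). Tet3, which oxidises methylated cytosine and was also chosen after it was seen, had 6.41 and 7.30 TPM in 2D and 13.9 and 12.5 TPM in 3D (log2 change 0.86, adjusted p 0.00331 by limma). Zfp57, the zinc finger protein that guides Trim28 to imprinted regions, had 54.9 and 28.5 TPM in 2D and 50.4 and 25.2 TPM in 3D, so that its libraries of the same culture differed by 1.92 and 2.00 times and the cultures overlapped.

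**Figure D5:**
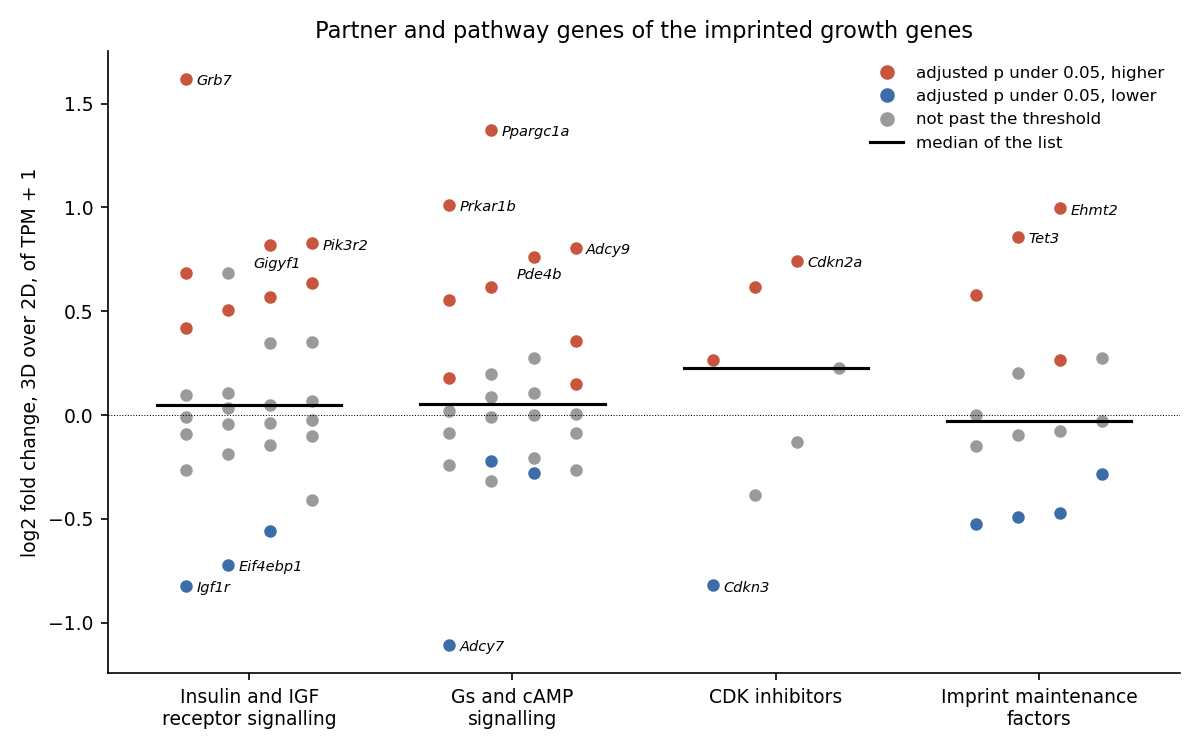
Log2 fold change of TPM + 1, 3D over 2D, of each tested gene in 4 lists of partner genes, coloured by call, with a horizontal bar at the median of each list. The medians are 0.05, 0.05, 0.23 and -0.03 from left to right, and each list holds genes called higher and genes called lower.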

How the data were processed

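RNA-seq of 2 libraries of 2D and 2 of 3D cultures of AML12 cells was used. According to the submitters' processing notes and the methods of the study, reads were cleaned by the authors with Trimmomatic 0.36 after cutadapt 1.8.3, mapped by HISAT2 2.0.5 (stranded mode, GRCm38) and quantified by StringTie 1.3.4 on genes of Ensembl 93. The authors deposited 1 column of TPM values for each library. The log2 fold change and p-value columns of the deposited table hold the authors' own comparison and were not used. TPM keeps no depth, so no counting interval was computed.

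Genes with a mean of at least 1 TPM were tested in R 4.3.3 by limma 3.58.1 on the scale of log2(TPM + 1), using eBayes with a trended, robust prior. Culture was the single factor, tests were two-sided, and p-values were adjusted over all tested genes by the Benjamini-Hochberg method. Fold changes on this scale understate those of low genes. The labels do not state whether the 2 samples of a culture came from separate cultures, so the p-values measure only the spread between these samples, which may be technical. An exact permutation test of 2 against 2 cannot go below 0.333. The script was tested on simulated data. Members were matched by symbol, and 9 had the same position in GENCODE release M21.

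The members and lists were chosen with earlier results of these data known. The rule named all members, the 4 genes with the highest mean TPM of each list, other genes of domains that overlap a member's, and, of the neighbours within 250 kb, the nearest on each side and the one with the highest TPM. Any other gene named was picked with its values in view. Alternatives were pseudocounts of 0.1 and 5, no filter, a mean TPM of at least 5, median centring, quantile scaling, leaving mitochondrial and the 20 highest genes out of the total, a replicate block, a constant prior variance, other windows, and omission of each library. A filter of 0.1 TPM in at least 1 library was added after the data were seen. Figures were drawn with matplotlib 3.10.9.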

Additional observations from a re-analysis of the deposited data

How the results depend on the processing

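The 3 tested members kept their direction and an adjusted p-value under 0.05 in all 13 alternatives each, with log2 fold changes of -0.28 to -0.24 for Gnas, -0.45 to -0.31 for Peg3 and 0.55 to 0.84 for Grb10. Their highest adjusted p-values were 0.0430 (Gnas) and 0.0439 (Peg3), both without 3D replicate 2, and 0.0198 (Grb10) without 3D replicate 1. The range for Grb10 comes from pseudocounts of 5 and 0.1, which set how far low values are shrunk. The number of members called stayed at 3 with any filter, including 6 tested at 0.1 TPM in at least 1 library, and over all left-out libraries (3 to 3).

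Same-numbered libraries did not deviate together (correlation -0.0549 across 14116 genes), and the numbers were therefore not taken as pairs. With the replicate block 6247 genes were called in all, against 7122. Of the members 3 were called, of the domain genes 8, of the neighbours 20, of Gs and cAMP signalling 9, and the other lists had the same counts as without it. Of the named genes, Copg2, Fignl1, Ltv1 and Prkar1a lost their calls under the block (adjusted p 0.0530, 0.139, 0.0835 and 0.0741).

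With 1 of the 4 libraries omitted, the tests called 4720 to 5954 genes, 0 to 1 network partners, 6 to 7 domain genes, 5 to 10 other imprinted genes, 6 to 8 maintenance factors, 11 to 13 genes of insulin and IGF signalling, 7 to 11 of Gs and cAMP signalling, 4 to 5 CDK inhibitors and 19 to 20 neighbours. A lone library is there assumed to vary like the others. The lowest count over all genes was without 3D replicate 1. With a window of 100 kb 11 of 16 tested neighbours were called, and with 500 kb 31 of 60, beside 23 of 34 at 250 kb. The number of genes within reach and the called share both moved with the window.

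Of the tested genes, 63 were followed through the alternatives and gave 814 values. Zfp57, Akt2, Grb2, Gsk3b, Creb1, Commd1, Grb14, Gigyf2, Adcy5, Adcy6, Adcy9 and Stx11 were not among them. Of the 814 values, 48 were no longer past the threshold, 13 newly were and 15 changed sign. The sign changes were all of genes not past the threshold. Akt1 became 0.0208 with quantile scaling and 0.00406 with the reduced total. Mkrn3 became 0.00966 with median centring, 0.0731 with quantile scaling and 0.0122 with the reduced total. Trim28 became 0.0119 with quantile scaling. Over the left-out libraries the log2 change ranged from -0.0595 to 0.0149 for Akt1, from -0.0473 to 0.282 for Dhcr7, from -0.0509 to 0.0437 for Mkrn3, from -0.0211 to 0.0617 for Tnfrsf23, from -0.0747 to 0.00895 for Tssc4 and from -0.756 to 0.0586 for Ube3a. The cause was not tested. Without counts, values near 0 TPM carry no detection limit.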

Other observations

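Some imprinted and pathway genes differed strongly between libraries of one culture. With a mean of at least 10 TPM and more than 1.5 times between libraries of a culture, 9 genes of the lists were found after their values were seen. Ube3a, an imprinted ubiquitin ligase gene, had 33.1 and 18.4 TPM in 2D and 14.7 and 25.0 TPM in 3D. Akt2 had 89.3 and 48.3 TPM in 2D and 87.8 and 80.1 TPM in 3D, and Grb2 had 68.2 and 67.8 TPM in 2D and 85.7 and 46.6 TPM in 3D. Gsk3b had 25.8 and 20.2 TPM in 2D and 11.9 and 24.0 TPM in 3D. Creb1 had 20.3 and 32.1 TPM in 2D and 20.8 and 32.2 TPM in 3D. The cultures overlapped in each of these 5 genes, as they did in Commd1 and Zfp57, and did not overlap in Atp10a and Nedd4.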
